A study of Mus musculus with 2 samples.

Results

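Transcripts of the chemokines and chemokine receptors were compared between 2 mouse testis libraries. The genes were taken by symbol: every row of the deposited table whose symbol begins with Ccl, Cxcl, Xcl, Cx3cl, Ccr, Cxcr, Xcr, Cx3cr or Ackr followed by a digit. This gave 56 of 18722 rows, made up of 33 ligand rows, 19 rows of signalling receptors and 4 rows of atypical receptors. One library, labelled shControl and wild type, is the control, named for a control short hairpin RNA. The other, labelled shDmrt1 and Dmrt1 knockdown, is named for a hairpin targeting Dmrt1, which encodes a DNA-binding regulator found in spermatogonia and Sertoli cells. Both came from male C57BL/6J mice at 16 weeks of age. The labels do not say how the hairpins were delivered, which cells took them up, or the number of testes and animals behind each library. The series title names testicular immune homeostasis and NF-kB signalling.

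Chemokines are small secreted proteins that guide leukocytes along concentration gradients. They are grouped by the spacing of conserved cysteines into CC, CXC, CX3C and XC families, and they act through receptors coupled to inhibitory G proteins. Atypical receptors bind chemokines without that coupling and mostly remove or transport them. In the testis, interstitial and peritubular macrophages are the main resident leukocytes, and many chemokine genes are induced by NF-kB or by interferons.

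Each group has a single library, so no test and no replicate check was possible, and every value compares 2 libraries. The deposited counts totalled 17846426 (control) and 24594371 (knockdown). Ratios are of counts scaled by TMM, a method that sets most genes to no change. Each has a 95% counting interval, which covers counting error only. A gene was called higher or lower in the knockdown library where its whole interval lay beyond 2-fold. Levels in CPM are by library total without TMM, so the ratio of knockdown to control CPM is smaller than the ratio given beside it. Dmrt1 itself had 852 and 39 counts and was 21.9-fold lower. The measured markers of Sertoli and germ cells were lower too. Fewer cells expressing Dmrt1 and less Dmrt1 RNA per cell therefore cannot be told apart. The tissue label was set beside marker genes. All measured Leydig, Sertoli and germ cell markers were lower in the knockdown library, so they bear out the label less there. Leydig cell markers summed to 22470 CPM (counts scaled to a common library total) in the control against 238 in the knockdown library, and Sertoli cell markers to 5958 and 479 CPM. Germ cell markers were scarce in both libraries, at 133 and 2.52 CPM over 9 genes, and Acrv1 was at 0 counts in the knockdown library. Prm1, Prm2 and Tnp1 had 43, 91 and 55 counts in the control. All 8 germ cell markers with at least 1 CPM in 1 library were lower, with a median log2 ratio of -4.64. All 6 genes shared by leukocytes in general (Ptprc, Coro1a, Laptm5, Lcp1, Cd53 and Cd52) were higher, by log2 ratios of 2.71 to 3.80, and summed to 494 and 3242 CPM. In bulk tissue, a difference in the number of cells of a type and one in RNA per cell cannot be told apart.

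Promoter sequence was examined first for the neutrophil-attracting ligands Cxcl1, Cxcl2 and Cxcl3 and for the interferon-inducible ligand Cxcl10. These 4 genes were higher together in the knockdown library, the series title names NF-kB, and all 4 hold matches to its binding site. Being higher does not mark them out. Cxcl9, Ccl3 and Cxcl13 were also higher, and their promoters, searched in the same way, held no such match. The bases below lie before the start of transcription, are from RefSeq on GRCm38.p6, and show matches to the kB consensus, the site bound by NF-kB, in capitals. In Cxcl10 the first run of capitals is a match to GAAA, NN and GAAA in a row, the core of the interferon-stimulated response element. Each motif was searched on both strands, and the motifs were chosen with the values known.
Cxcl1, plus strand, chr5:90891135-90891215: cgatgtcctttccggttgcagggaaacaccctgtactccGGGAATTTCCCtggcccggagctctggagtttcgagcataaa
Cxcl2, plus strand, chr5:90903789-90903869: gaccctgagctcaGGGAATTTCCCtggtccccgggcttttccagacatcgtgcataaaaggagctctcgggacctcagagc
Cxcl3, plus strand, chr5:90785991-90786071: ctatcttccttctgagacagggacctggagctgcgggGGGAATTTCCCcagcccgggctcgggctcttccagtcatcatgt
Cxcl10, minus strand, chr5:92348969-92349109: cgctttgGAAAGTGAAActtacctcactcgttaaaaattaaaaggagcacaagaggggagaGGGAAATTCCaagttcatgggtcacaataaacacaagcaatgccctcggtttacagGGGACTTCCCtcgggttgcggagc

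Cxcl1, Cxcl2 and Cxcl3 carried the same run, GGGAATTTCCC, which holds 2 overlapping matches to the kB consensus, one on each strand. The run began at position -71 in Cxcl1, -97 in Cxcl2 and -73 in Cxcl3, counted from the RefSeq start. Cxcl10 held 2 separate kB matches, at -159 and -103, and its interferon element core at -213. A RefSeq promoter window of 250 bases before to 50 bases after the start was found for 43 of the 55 member symbols. The symbols with no window included Ccl2, Ccl4, Ccl5, Ccl7, Ccl11, Ccl24, Cxcl5, Cxcl16, Ccr7, Ccr10 and Cxcr5. A kB match was present in 10 of 47 member windows, 21.3%, against 4.51% of all 32851 windows. Those 10 windows belonged to Cxcl1, Cxcl2, Cxcl3, Cxcl10, Ccl9, Ackr2, Ccr6, Ccl27a, Ccl20 and Ccr3. Of these genes 6 were higher, 2 were neither and 2 had too few counts to measure. Of the 43 member symbols with a window, 23 were higher. The interferon element core was present in the windows of Ccl19, Cxcl10 and Cxcl14, all 3 of them higher. That was 6.38% of member windows, against 3.44% of all windows. The letters TTCNNNGAA, a STAT-type element, were present in 8.51% of member windows and 8.30% of all windows. A match describes letters in a window and does not show binding.

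Most chemokine and receptor genes that could be measured were higher in the knockdown library. At least 1 CPM in 1 library was reached by 51 of the 56 rows. Of these, 33 were higher, 2 were lower and 16 were neither, or 64.7% higher against a background of 17.8% of 15104 tested genes. The lower pair made up 3.92%, against a background of 20.8%. Their median log2 ratio was 1.75 and stayed at 1.75 with the 3 members at 0 control counts set at their bound, whereas the median over all tested genes was -0.02. The filter was passed in both libraries by 34 members, in the knockdown library alone by 11 and in the control library alone by 6. Among the 34, 24 were higher and none was lower, with a median of 1.62. When scaled by library totals, which lowers all log2 ratios by a median of 0.44, 24 of the 51 were higher and 3 lower, against backgrounds of 12.7% and 27.8%. With the whole interval beyond 4-fold, 15 ligands and 6 receptors were higher, against a background of 8.38%. By the ratio of deposited FPKM values beyond 2-fold, 22 ligands and 16 receptors were higher, against 21.6%.

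The 5 rows below the filter had few or no reads. Ccl20, a CCR6 ligand, and Cxcr1, a receptor of neutrophils, each had 0 control counts and 2 knockdown counts. Ccr1l1 had 2 and 0 counts, and the eosinophil receptor gene Ccr3 had 6 and 13. The second Ccl27a row, an identifier on an unplaced scaffold, had 0 counts in both libraries but a deposited FPKM (fragments per kilobase of transcript, scaled to library depth) of 5.24 in the control. Genes on the opposite strand overlap Ccl2, Ccl6, Ccl19, Ccl21a, Ccl25, Cxcl16, Xcl1, Ccr9, Cxcr5, Cxcr6, Cx3cr1 and Ackr4, besides those named later. The counted strand is not given, so reads of such partners cannot be told apart from theirs. Ccr9 and Cx3cr1 also overlap genes on their own strand. The 3-count floor corresponds to 0.168 CPM for the control and 0.122 CPM for the knockdown.

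**Figure D1:**
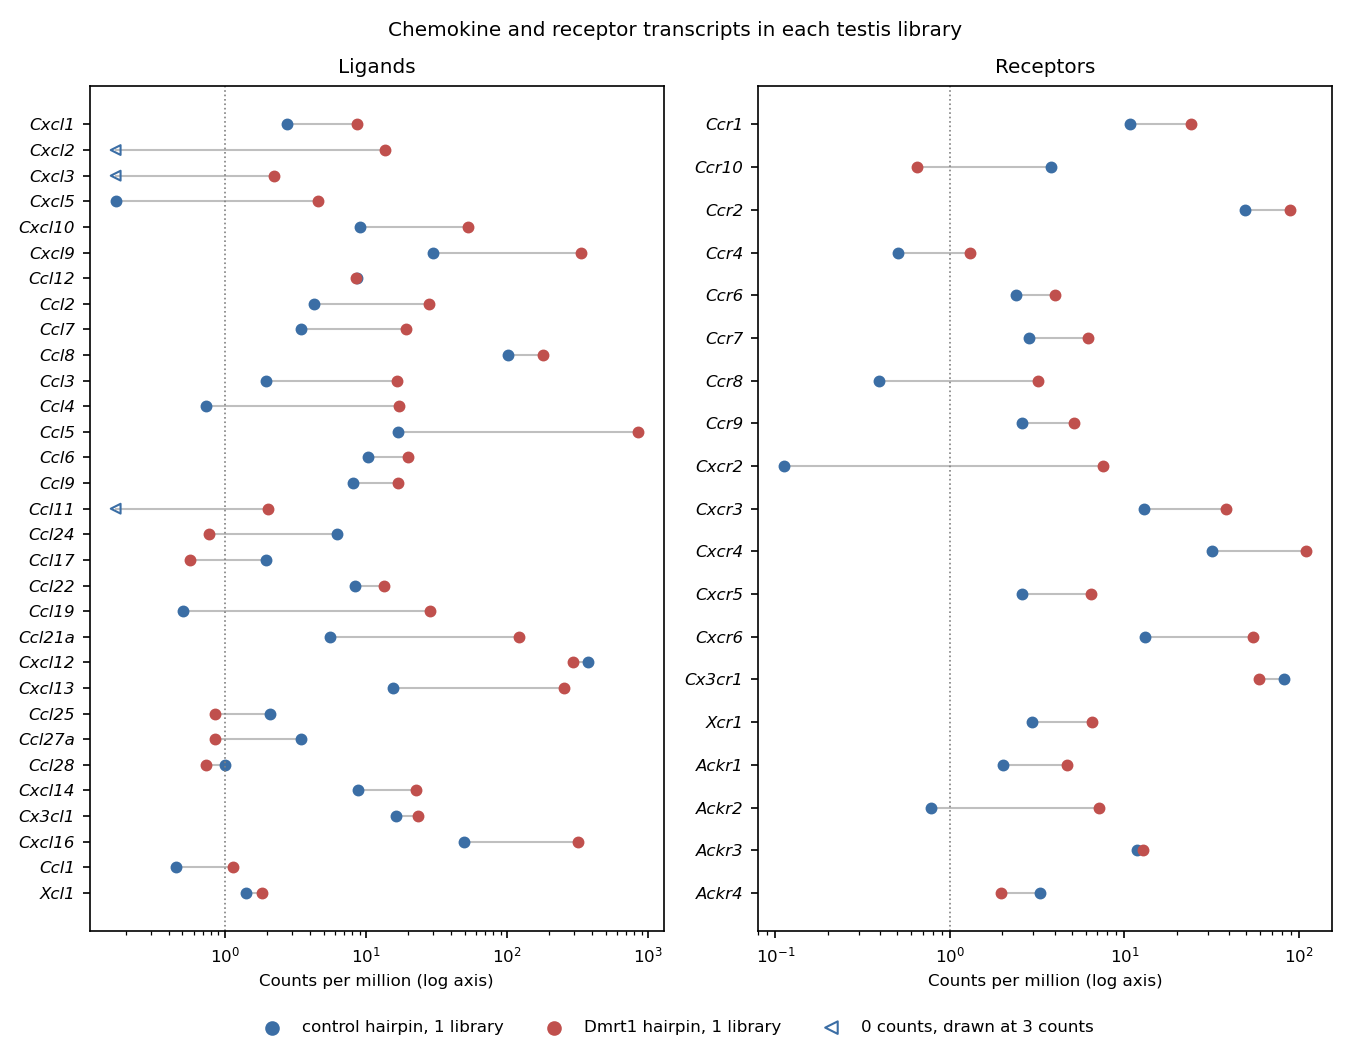
CPM on a log axis for 31 ligand and 19 receptor rows that passed the filter, with 1 point per library and no error, since each group has 1 library. Most knockdown points lie to the right of the control points, by the widest gaps for Ccl5, Ccl19, Cxcl2 and Cxcr2. Points to the left are those of Ccl24 and Ccr10, called lower, and of members called neither. The latter are Ccl12, Ccl17, Ccl25, Ccl27a, Ccl28, Cxcl12, Cx3cr1 and Ackr4. Triangles mark 0 counts, drawn at 3 counts, and the dotted line is 1 CPM.

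The CXCR2 ligands, which recruit neutrophils and carry the ELR motif before the first cysteines, were low in the control library. All 4 were higher. Cxcl2 (ENSMUSG00000058427, chromosome 5, 90903871 to 90905938 on GRCm38) had 0 and 335 counts, or 0 and 13.6 CPM. It was 110-fold higher with the control set at 3 counts, and its interval ran from log2 6.48 upward. Cxcl3 (ENSMUSG00000029379) had 0 and 55 counts, or 0 and 2.24 CPM. It was 18.1-fold higher with the control set at 3 counts, and its interval ran from log2 3.83 upward. Cxcl5 (ENSMUSG00000029371), an attractant made largely by epithelial cells and platelets, had 3 and 112 counts, or 0.168 and 4.55 CPM, a log2 ratio of 4.99 with an interval of 3.62 to 7.50, or 4.25 by FPKM. Cxcl1 (ENSMUSG00000029380) was the member of this group with the most control reads, at 49 and 211 counts, or 2.75 and 8.58 CPM, and was 4.21-fold higher (log2 2.07, interval 1.63 to 2.57). The 4 genes lie together on chromosome 5 between 90759360 and 90905938, and 3 of the 4 passed the filter only through the knockdown library.

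Their receptor gene Cxcr2 (ENSMUSG00000026180, chromosome 1, 74153989 to 74161246), which is expressed by neutrophils, was also higher. It had 2 and 186 counts, or 0.112 and 7.56 CPM, a log2 ratio of 6.20 with an interval of 4.65 to 9.58. Its log2 ratio was 4.40 by deposited FPKM and 4.76 with a prior count of 5. Neutrophil markers stood beside it, with all 10 higher and a sum of 14.1 CPM in the control against 969 CPM in the knockdown. Of these markers, Mmp8, Retnlg and S100a8 were at 0 counts in the control library. Their part in the Cxcr2 result was not tested.

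Both measured CXCR3 ligands, which are induced by interferon gamma and attract activated T and NK cells, were higher. Cxcl9 (ENSMUSG00000029417, chromosome 5, 92321347 to 92328079) had 532 and 8261 counts, or 29.8 and 336 CPM, and was 15.3-fold higher, with a log2 ratio of 3.94 (3.81 to 4.07). Cxcl10 (ENSMUSG00000034855, chromosome 5, 92346638 to 92348889) had 161 and 1290 counts, or 9.02 and 52.5 CPM, and was 7.88-fold higher (2.98, interval 2.74 to 3.23). Cxcl10 lies inside Art3, which is annotated on the opposite strand. Cxcl11, the third ligand of this receptor, was not analysed here. Cxcr3 itself (ENSMUSG00000050232, chromosome X, 101731535 to 101734269) had 232 and 942 counts, or 13.0 and 38.3 CPM, a smaller log2 ratio of 2.00 (1.79 to 2.21). Markers of T and NK cells summed to 68.8 and 476 CPM, with 8 of 9 measured higher. Their part was not tested.

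The CCR1 ligands and Ccl4, a relative of Ccl3, which attract monocytes, macrophages and effector T cells, were all higher, but over a wide range. Ccl5 (ENSMUSG00000035042, chromosome 11, 83525778 to 83530518), made by T cells, NK cells and macrophages, had 302 and 20751 counts, or 16.9 and 844 CPM. It was 67.6-fold higher, a log2 ratio of 6.08 with an interval of 5.92 to 6.25. Ccl4 (ENSMUSG00000018930) had 13 and 421 counts, or 0.728 and 17.1 CPM, and was 30.8-fold higher, and Ccl3 (ENSMUSG00000000982) had 35 and 406 counts, or 1.96 and 16.5 CPM, and was 11.3-fold higher. Their intervals were 4.21 to 5.92 and 3.02 to 4.06 on the log2 scale. Ccl6 and Ccl9, macrophage chemokines of rodents, had smaller ratios. Ccl6 (ENSMUSG00000018927) had 185 and 487 counts, or 10.4 and 19.8 CPM, and was 2.59-fold higher (1.13 to 1.63). Ccl9 (ENSMUSG00000019122) had 145 and 415 counts, or 8.12 and 16.9 CPM, and was 2.82-fold higher (1.22 to 1.78). Neither passed the rule when scaled by library totals. The 5 genes form a cluster on chromosome 11 between 83525778 and 83664683, so the ratios within it ran from log2 1.37 to 6.08.

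Their receptor gene was higher as well. Ccr1 (ENSMUSG00000025804, chromosome 9, 123962124 to 123968692) had 192 and 591 counts, or 10.8 and 24.0 CPM, and was 3.03-fold higher (1.36 to 1.84), but did not pass with library totals.

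Among the monocyte attractants of the MCP group, 3 of 4 were higher. Ccl2 (ENSMUSG00000035385, chromosome 11, 82035571 to 82037453), the main CCR2 ligand for inflammatory monocytes, had 76 and 691 counts, or 4.26 and 28.1 CPM, and was 8.91-fold higher (log2 3.16, interval 2.82 to 3.53). Ccl7 (ENSMUSG00000035373, chromosome 11, 82045712 to 82047525) had 62 and 470 counts, or 3.47 and 19.1 CPM, and was 7.42-fold higher (2.89, interval 2.52 to 3.31). Ccl8 (ENSMUSG00000009185, chromosome 11, 82115185 to 82116799), which in the mouse acts through CCR8, was already abundant in the control. It had 1802 and 4434 counts, or 101 and 180 CPM, a ratio of 2.43-fold (log2 1.28, interval 1.20 to 1.36) that did not pass with library totals. Ccl12 (ENSMUSG00000035352), a second CCR2 ligand of the mouse, had 155 and 209 counts, or 8.69 and 8.50 CPM, a log2 ratio of 0.41 (0.10 to 0.72) that was -0.03 with library totals. Ccl12 and Ccl8 are neighbours of Ccl2, Ccl7, Ccl11 and Ccl1 in a cluster between 82035571 and 82305690, of which 4 genes were higher and 2 were neither.

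Ccr2 (ENSMUSG00000049103, chromosome 9, 124101950 to 124113557), the receptor of inflammatory monocytes, had 881 and 2179 counts, or 49.4 and 88.6 CPM, and was 2.44-fold higher (log2 1.29, interval 1.17 to 1.40). It passed with TMM scaling but not with library totals. Ccr8 (ENSMUSG00000042262, chromosome 9, 120092114 to 120094906), found on T helper and regulatory T cells, had 7 and 79 counts, or 0.392 and 3.21 CPM, a log2 ratio of 3.39 (2.37 to 4.84), or 2.45 by FPKM. Ccr8 passed the filter only through the knockdown library. Its other ligand gene, Ccl1, had 8 and 28 counts, with an interval of 0.62 to 3.13, and was neither. Macrophage and monocyte markers were mostly higher as well, with 9 of 11 higher and sums of 684 and 4474 CPM. The exceptions were Cd163 and Mrc1, markers of resident macrophages, with log2 ratios of -4.43 and -1.61. The part of these cells was not tested.

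The CCR3 ligands, the eotaxins, went opposite ways. Ccl11 (ENSMUSG00000020676, chromosome 11, 82057823 to 82062955), made mainly by stromal cells, had 0 and 50 counts, or 0 and 2.03 CPM. Ccl11 was 16.4-fold higher with the control set at 3 counts, and its interval ran from log2 3.69 upward. Ccl24 (ENSMUSG00000004814, chromosome 5, 135569937 to 135573049), made mainly by macrophages, had 111 and 19 counts, or 6.22 and 0.773 CPM. It was the only ligand called lower, with a log2 ratio of -2.54 (-3.35 to -1.86), or -3.20 by FPKM, and it passed the filter only through the control library. Their receptor gene Ccr3 was below the filter. Of the eosinophil and mast cell markers, Cpa3, Epx, Mcpt4, Prg2 and Tpsb2 were at 0 counts in the control, and the list summed to 0.504 and 16.4 CPM. Fibroblast markers summed to 1032 and 6193 CPM, with 4 of 5 higher. The part of these cells was not tested.

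**Figure D2:**
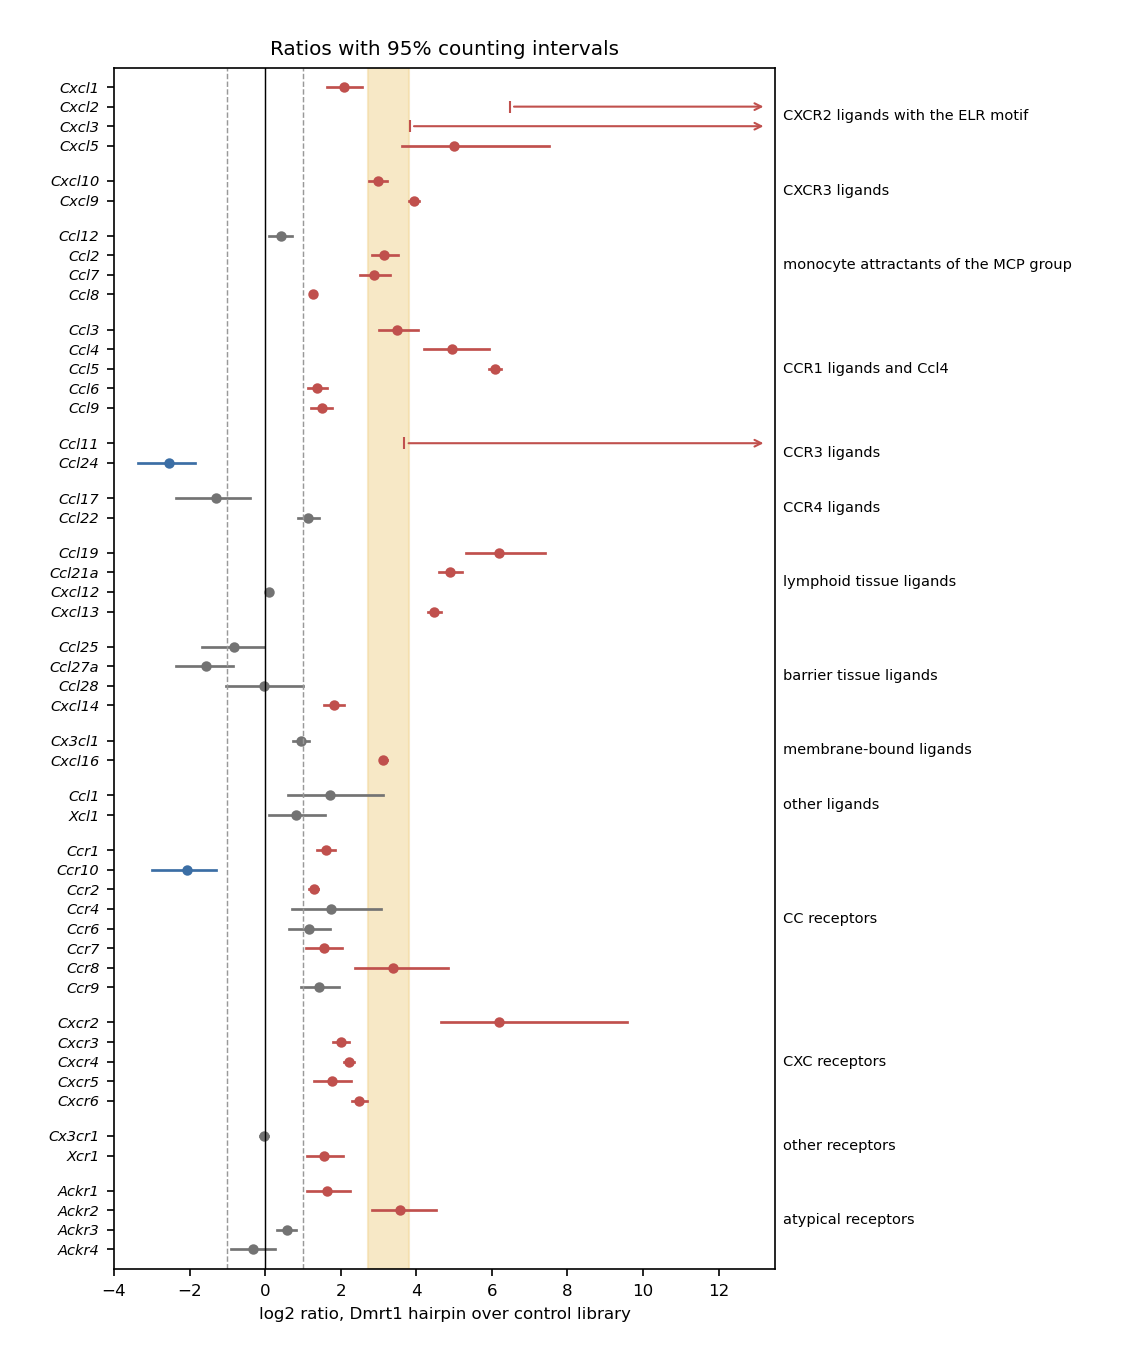
Log2 ratios of the knockdown over the control library with 95% counting intervals for 50 members that passed the filter, grouped by role, with red for higher, blue for lower and grey for neither. Dashed lines mark 2-fold, the shaded band spans the 6 general leukocyte genes (2.71 to 3.80), and arrows mark genes with 0 control counts, whose ratio has no upper limit. Ligands lie on both sides of the band, whereas most receptors lie to its left.

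Chemokines that organise lymphoid tissue included several of the most elevated members. Ccl19 (ENSMUSG00000071005, chromosome 4, 42754525 to 42756577), a CCR7 ligand that gathers T cells and dendritic cells, had 9 and 700 counts, or 0.504 and 28.5 CPM, and was 72.7-fold higher (log2 6.18, interval 5.33 to 7.40). Ccl21a (ENSMUSG00000094686, chromosome 4, 42772860 to 42773993), the other CCR7 ligand, made by lymphatic endothelium and stroma, had 99 and 2998 counts, or 5.55 and 122 CPM, and was 29.7-fold higher (4.61 to 5.20). The mouse genome holds near-identical copies of Ccl21a, so its reads may be shared with them and its value is uncertain. Cxcl13 (ENSMUSG00000023078, chromosome 5, 95956951 to 95961068), which attracts B cells, had 277 and 6249 counts, or 15.5 and 254 CPM, and was 22.2-fold higher (4.30 to 4.65).

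Their receptors had smaller ratios. Ccr7 (ENSMUSG00000037944, chromosome 11, 99144196 to 99155077) had 51 and 152 counts, or 2.86 and 6.18 CPM, a log2 ratio of 1.55 (1.09 to 2.04). Cxcr5 (ENSMUSG00000047880, chromosome 9, 44511787 to 44561877), the B cell receptor for Cxcl13, had 46 and 159 counts, or 2.58 and 6.46 CPM, a log2 ratio of 1.76 (1.29 to 2.28). Both were called higher with TMM, and neither was with library totals. Of 6 B and plasma cell markers 1 was higher and 5 were neither, with sums of 1820 and 2460 CPM.

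The homeostatic ligand Cxcl12 (ENSMUSG00000061353, chromosome 6, 117168535 to 117181367), which retains haematopoietic cells and guides germ cells to the gonad, was nearly level. It had 6679 and 7270 counts, or 374 and 296 CPM, a log2 ratio of 0.10 (0.05 to 0.15) that was -0.34 with library totals, and 0.39 by FPKM. Its receptor Cxcr4 (ENSMUSG00000045382, chromosome 1, 128588199 to 128592293), which most leukocytes express, had 569 and 2696 counts, or 31.9 and 110 CPM, and was 4.67-fold higher (log2 2.22, interval 2.09 to 2.36). Its second, atypical receptor Ackr3 had 210 and 316 counts and a ratio of log2 0.57 (0.31 to 0.83), or 0.43 by FPKM.

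The membrane-bound chemokines also differed from each other. Cxcl16 (ENSMUSG00000018920, chromosome 11, 70453983 to 70459984), made by macrophages and dendritic cells, had 889 and 7883 counts, or 49.8 and 321 CPM, and was 8.74-fold higher (log2 3.13, interval 3.03 to 3.23). Its receptor Cxcr6 (ENSMUSG00000048521, chromosome 9, 123806475 to 123811760), a receptor of memory and tissue-resident T cells, had 234 and 1334 counts, or 13.1 and 54.2 CPM, and was 5.61-fold higher (2.29 to 2.70). Fractalkine, Cx3cl1 (ENSMUSG00000031778), had 290 and 571 counts, or 16.2 and 23.2 CPM, a log2 ratio of 0.96 (0.75 to 1.17), and was neither. Its receptor Cx3cr1 (ENSMUSG00000052336, chromosome 9, 119901616 to 120069879), a marker of resident macrophages and patrolling monocytes, had 1466 and 1446 counts, or 82.1 and 58.8 CPM. Its log2 ratio was -0.04 (-0.15 to 0.07), or -0.48 with library totals. Cx3cr1 is annotated over a long span that also holds Gorasp1, Csrnp1 and Xirp1 on its own strand, so its counts may include reads of these genes.

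Among the ligands of skin and mucosa 1 of 4 measured was higher. Cxcl14 (ENSMUSG00000021508, chromosome 13, 56288643 to 56296551), a chemokine of epithelia and fibroblasts, had 156 and 559 counts, or 8.74 and 22.7 CPM, and was 3.53-fold higher (log2 1.82, interval 1.56 to 2.09). Ccl25, a ligand of CCR9 in thymus and gut, had 37 and 21 counts, and Ccl28 had 18 and 18. Ccl27a (ENSMUSG00000073888, chromosome 4, 41769467 to 41774247) had 62 and 21 counts, or 3.47 and 0.854 CPM, a log2 ratio of -1.56 (-2.37 to -0.85), which passed as lower only with library totals. It overlaps Il11ra1 on the opposite strand and has near-identical copies, so its value is uncertain. Ccr10 (ENSMUSG00000044052, chromosome 11, 101172997 to 101175443), the receptor for Ccl27a and Ccl28, had 68 and 16 counts, or 3.81 and 0.651 CPM. It was the only receptor called lower, with a log2 ratio of -2.07 (-2.99 to -1.31), and it overlaps Cntnap1 on the opposite strand. Ccr10 passed the filter only through the control library.

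The remaining chemokine genes were near the threshold or low in reads. For the CCR4 ligands of macrophages and dendritic cells, Ccl22 had 148 and 332 counts (log2 1.14, interval 0.86 to 1.43) and Ccl17 had 35 and 14 counts (-1.31, interval -2.35 to -0.41). Ccr4 had 9 and 32 counts, Ccr6 had 43 and 98, and Ccr9 had 46 and 127. None of these 5 genes passed the rule. Xcl1, made by T and NK cells, had 25 and 45 counts and was neither. Its receptor Xcr1, a receptor of cross-presenting dendritic cells, had 53 and 160 counts and was called higher with TMM (log2 1.56, interval 1.12 to 2.05) but not with library totals. Dendritic cell markers summed to 43.1 and 87.8 CPM, with 1 of 5 measured higher and 1 lower.

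Of the atypical receptors 2 of 4 were higher. Ackr2 (ENSMUSG00000044534, chromosome 9, 121898355 to 121911074), which clears inflammatory CC chemokines and is known from lymphatic endothelium, had 14 and 175 counts, or 0.784 and 7.12 CPM, and was 11.9-fold higher (log2 3.58, interval 2.84 to 4.52). Ackr2 passed the filter only through the knockdown library. Ackr1 (ENSMUSG00000037872, chromosome 1, 173331886 to 173333750), the chemokine-binding protein of venules and red cells, had 36 and 115 counts, or 2.02 and 4.68 CPM, and a log2 ratio of 1.64 (1.10 to 2.24), or 2.29 by FPKM, but did not pass with library totals. It overlaps Cadm3 on the same strand. Ackr4, which scavenges CCR7 and CCR9 ligands, had 59 and 48 counts and a ratio of log2 -0.32 (-0.90 to 0.26). Endothelial markers summed to 116 and 362 CPM, with 4 of 7 higher, and their part was not tested.

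The make-up of chemokine transcripts by level differed between the libraries. Levels between genes were compared per length, by the authors' deposited FPKM values, which have no interval here. In the control library Ccl8 led the ligands at 498 FPKM, or 52.7% of the summed ligand FPKM. Cxcl12 followed at 152 and Ccl5 at 82.0, or 16.1% and 8.69%. In the knockdown library Ccl5 led at 5164 FPKM and 65.6%, followed by Ccl8 at 1090, Cxcl13 at 305, Ccl21a at 217 and Cxcl12 at 200. The summed FPKM of ligands was 944 and 7870. Among receptors Cxcr4 led in both libraries, at 25.9 FPKM (25.6% of the summed FPKM of receptors and atypical receptors) and 111 FPKM (35.7%). Cx3cr1 was next in the control at 17.9 FPKM and 17.6%, and stood at 18.1 FPKM and 5.80% in the knockdown library. There Cxcr6 at 44.0, Cxcr3 at 36.8 and Ccr2 at 29.8 FPKM were among the receptors above it. With 1 library each, the spread that would separate neighbours in these orders is unknown.

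**Figure D3:**
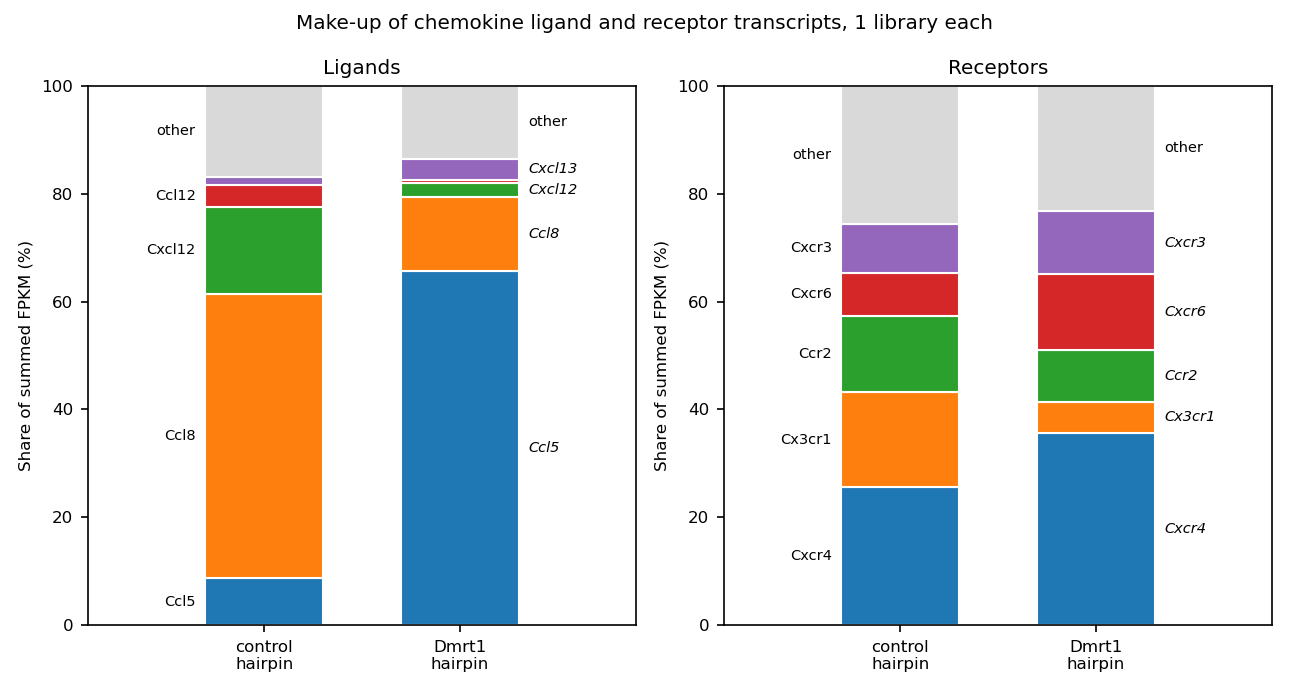
Share of the summed deposited FPKM of ligands (left) and receptors with atypical receptors (right) held by each gene, in percent, with 1 bar per library and no error. Ccl8 holds 52.7% of the control ligand bar, Ccl5 holds 65.6% of the knockdown ligand bar, and Cxcr4 is the largest named share of both receptor bars.

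Ligands and receptors were then paired by textbook mouse binding, over 40 pairs. Both genes were measured in 34 pairs, in 4 pairs at least 1 gene was below the filter, and 2 pairs with Cxcl11 were not analysed here. Both sides were higher in 20 of the 34, 10 of them with library totals. In 4 pairs only the receptor was higher: Cxcl12 with Cxcr4, Xcl1 with Xcr1, Ccl12 with Ccr2, and Ccl1 with Ccr8. In 2 pairs only the ligand was higher, Ccl19 and Ccl21a with the scavenging receptor Ackr4. The atypical receptors Ackr1 and Ackr2, both called higher, were not in any of the pairs. Ccl27a and Ccl28 with Ccr10 had a receptor called lower and a ligand that was neither, and the other 6 pairs had neither side called. A gene can stand in several pairs, so pairs are not independent.

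**Figure D4:**
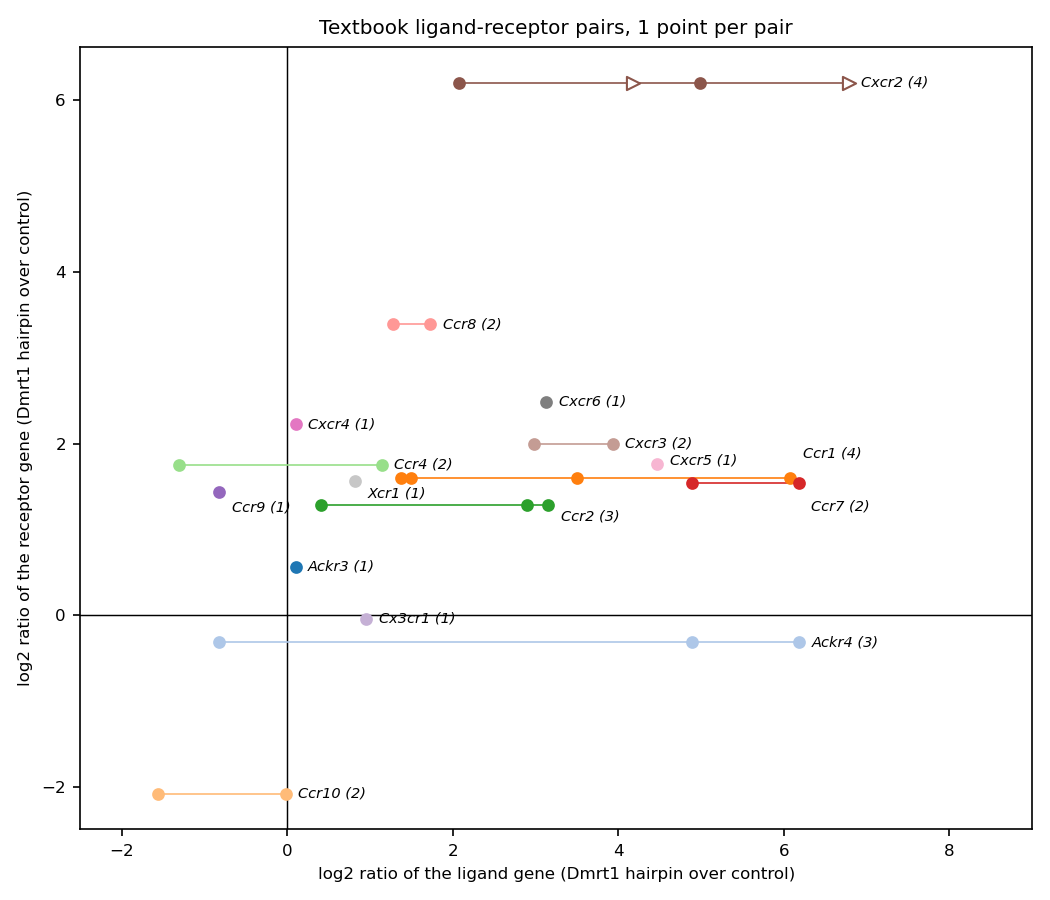
Log2 ratio of the ligand gene (x axis) against that of the receptor gene (y axis) for 31 measured pairs, with 1 point per pair and a line joining the ligands of 1 receptor. The number after each receptor is its count of pairs, and open triangles are ligands with 0 control counts at their lower bound. The Cxcr2 pairs lie highest, the Ccr10 pairs lie below 0, and Cxcl12 with Cxcr4 lies near 0 on the ligand axis.

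Members were also set beside the general leukocyte genes, whose log2 ratios spanned 2.71 to 3.80 with a median of 3.10. Of 31 measured ligands, 10 were above that span, 5 within it and 16 below it. Those above it were Cxcl9, Cxcl13, Ccl21a, Ccl4, Cxcl5, Ccl5, Ccl19, Ccl11, Cxcl3 and Cxcl2. Of 16 measured signalling receptors 13 were below the span, 2 were within it, among them Ccr8, and Cxcr2 alone was above it. Of the ligands above it, Ccl4, Cxcl5, Ccl19, Ccl11, Cxcl3 and Cxcl2 passed the filter only through the knockdown library, as did Cxcr2, so the filter partly fixed their place. Ccl11, Cxcl3 and Cxcl2 had 0 control counts. This comparison was chosen after the values were seen.

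Other genes of chemokine action were taken from 4 textbook lists of 65 genes. Of 62 measured, 42 were higher, 1 was lower and 19 were neither, against the same backgrounds of 17.8% and 20.8%. Among receptor-proximal signalling genes 11 of 18 were higher and none lower, with a median log2 ratio of 1.76. They included Rgs1, which dampens G protein signals in lymphocytes, with 27 and 471 counts and a ratio of log2 4.08 (3.54 to 4.72). Pik3r5, the regulatory subunit of PI3K gamma, was 13.8-fold higher, and Plcb2, a phospholipase of leukocytes, was 8.56-fold higher. The widely expressed Gnai3 and Gnb1, which encode G protein subunits, had log2 ratios of -0.20 and 0.32. Gnai2, another G protein subunit gene, was among those called higher, at log2 1.11, as were Arrb2 at 1.86 and Grk2 at 2.21.

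Of 28 measured genes of downstream signalling and cell movement, 17 were higher and 1 was lower, with a median of 1.82. The leukocyte kinase gene Fgr had a log2 ratio of 4.55, and the oxidase subunit gene Ncf1 one of 3.74. Tiam1, an activator of Rac, was the lower one, with 2759 and 576 counts and a ratio of log2 -2.28 (-2.41 to -2.15). Rac2, the Rac form of blood cells, was 8.25-fold higher, whereas the widely expressed Rac1 had a log2 ratio of 0.93 (0.88 to 0.99) and was neither. The kinase genes Src and Jak2 were among those called higher, at log2 1.76 and 1.89. Rac2, Rac1, Src and Jak2 are named after their values were seen, as are Gnai3, Gnb1, Gnai2, Arrb2 and Grk2.

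Of 10 genes of enzymes that trim or shed chemokines, 9 were higher, with a median of 3.79. Mmp8, Elane and Ctsg, all of neutrophils, were at 0 counts in the control and had 441, 301 and 165 counts in the knockdown library. Adam10, which sheds Cx3cl1 and Cxcl16, had a log2 ratio of -0.37 (-0.43 to -0.31) and is named after its value was seen. Of the chemoattractant genes outside the symbol rule, 5 of 6 measured were higher. Ccrl2, a chemerin-binding receptor, had 87 and 4517 counts and was 50.9-fold higher, and the chemerin receptor gene Cmklr1 was 19.4-fold higher. Cd74, which besides its role in class II antigen presentation binds Mif, was 10.9-fold higher. The platelet chemokine gene Pf4 (CXCL4), by contrast, had 275 and 232 counts and a ratio of log2 -0.27 (-0.52 to -0.01), and is named after its value was seen. Ppbp (CXCL7) had 1 and 12 counts and was not measured. Platelet markers summed to 21.9 and 33.1 CPM, with 1 of 4 higher.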

How the data were processed

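The deposited table gives raw read counts and FPKM values of both libraries for each locus, per the file headers. Which tool made the FPKM values deposited by the authors is not given in the sources used here, nor is the use of molecular identifiers or the counted strand. The kit is stranded, per the labels' protocols; without the counted strand, reads of genes overlapping on opposite strands cannot be told apart. Named in the submitters' processing notes, with no role, are the build mm10, DESeq, edgeR 3.12.1, Subread 1.5.1, featureCounts, STAR 2.5.3a and Trimmomatic 0.36. The authors' deposited EBSeq comparison (FDR 0.01, fold 2, with log2 fold changes) rests on the same 2 libraries, per the file headers. Positions of genes come from GENCODE M21 (GRCm38) and promoters from RefSeq.

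Counts were scaled by TMM (edgeR 4.0.16, R 4.3.3; factors 1.17 and 0.858). Log2 ratios used a prior count of 0.5, and intervals are Clopper-Pearson intervals of the knockdown share of both counts. Genes needed 1 CPM in 1 library. A gene at 0 counts was set at 3 counts for a bound, which leaves out the counting error of the other library. Alternatives were library totals, size factors from DESeq2 1.42.0, a prior count of 5, other filters, other folds and FPKM with a pseudocount of 0.1. Counts over lists include every measured gene, but some genes' own values are not reported here or drawn. The interval script was tested on simulated data. The members, lists and pairs were chosen with earlier results of these data known. By rule, full values are given in each role for up to 4 called members whose interval bound nearest 0 lies farthest from it, for every member called lower or called at 0 counts in 1 library, and for the most abundant by FPKM; in each pathway list, for 3 called higher and 2 called lower. Software was pandas 2.3.3, scipy 1.17.1 and numpy 2.4.6 under Python 3.11.15.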

Additional observations from a re-analysis of the deposited data

How the results depend on the processing

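No paired analysis was possible because neither group has a second library, and leaving one out would end the comparison. DESeq2 size factors kept all 51 measured members inside their counting intervals. Library totals moved 24 of them beyond, changed the sign of Ccl12 and Cxcl12 (both neither) and of no called member. They gave 17 ligands higher and 2 lower, 7 receptors (atypical ones included) higher instead of 13, 10 pairs instead of 20, and 5 pathway genes lower instead of 1. With the whole interval beyond 4-fold, 6 receptors and 7 pairs were higher, and 0 ligands and 0 receptors were lower, against backgrounds of 8.38% higher and 11.8% lower. By point estimates beyond 2-fold (backgrounds 21.4% and 25%), 3 ligands and 3 pathway genes were lower. By 1.5-fold with the interval excluding 1 (29.7% and 32.5%), 4 ligands and 5 pathway genes were lower. By FPKM (21.6% and 23.9%), 4 ligands and 3 pathway genes were lower. A filter at 5 CPM (18.4% and 18%) removed Ccr10 and left 0 receptors lower. A prior count of 5 moved the log2 ratio of Cxcl2 from 9.38 to 6.08. It moved Cxcl3 from 6.78 to 3.58 and Ccl11 from 6.65 to 3.45, all with 0 control counts. The ratio by FPKM differed by over 1.5 times for 9 members, among them Ackr1, Ccl11, Ccl24, Ccr8, Cxcl2, Cxcl3, Cxcl5 and Cxcr2. The cause was not tested. For genes with under 20 counts in 1 library, depth limits the ratio.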

Other observations

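The authors' deposited table calls 23 of the members up, 1 down and 27 normal, and gives no value for the 5 rows below 1 CPM. All 23 were among the 33 members called higher here. The other 10, called normal in the authors' deposited table, were Ackr1, Ccl6, Ccl8, Ccl9, Ccr1, Ccr2, Ccr7, Cxcl14, Cxcr5 and Xcr1. Ccl24 was down in that table, and Ccr10 was normal there with a log2 fold change of -1.99. With a single library in each group, neither set of calls measures the spread between animals.

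Neighbouring genes of 1 cluster on chromosome 8, between 94745590 and 94812036, were all neither: Ccl22, Cx3cl1 and Ccl17, with log2 ratios from -1.31 to 1.14. The cluster was taken as members whose starts lie at most 500 kb apart, a distance chosen after the data were seen.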
